A study of Arabidopsis thaliana with 9 samples.

Results

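Hypocotyls of Arabidopsis thaliana at 4 weeks were set against hypocotyls at 19 days, each as 1 droplet library of single nuclei (10x Genomics, 3′ ends). The members are the 2081 barcodes with over 1200 and under 10000 counts in the 4-week library and the 684 barcodes with over 1500 and under 15000 counts in the 19-day wild-type library, 2765 of the 5175 barcodes that limits on counts leave in the 9 libraries. Counts of all nuclei of a library were summed, restricted to the 36449 nuclear gene IDs that both gene files hold, and scaled to CPM, the counts of a gene per 1000000 counts of the library.

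The 4-week library came from Col-0 plants that carried the reporter transgenes PXY:H4-GFP and SMXL5:H2B-RFP, which mark the xylem side and the phloem side of the cambium, and the 19-day library from plain Col-0. A further 19-day library came from the strigolactone receptor mutant d14-1, and 3 plates of 4-week reporter nuclei were read with VASA-seq, a total-RNA method. All plants grew on agar with 1% sucrose in short days with 10 h of light, and pooled hypocotyls were chopped and their nuclei sorted on a DNA stain. The 4-week reads were counted with STARsolo and both 19-day libraries with Cell Ranger. Age therefore cannot be told apart from library, plant pool, reporter line and counting software, and with 1 library a side there is no test. Each ratio is the 4-week CPM over the 19-day wild-type CPM, followed by an exact 95% interval that covers counting error only. The word overlap after a gene ID marks a span that overlaps another annotated gene, whose reads the counting software may have split differently. In summed nuclei, fewer nuclei of a type and less RNA per nucleus cannot be told apart.

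The hypocotyl joins root and shoot. Once it stops elongating it thickens: the vascular cambium, a ring of stem cells held active by cytokinin and auxin, gives off xylem to the inside and phloem to the outside, while the epidermis and cortex are shed and a periderm with suberised walls takes their place. Plants also balance opposed defence hormones, of which salicylic acid mainly serves against pathogens that feed on living tissue and jasmonate against wounding and chewing insects.

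Both libraries were sequenced to a similar total, 21650313 counts at 4 weeks and 18452168 at 19 days, but 21.3% of these lay in nuclei at 4 weeks against 9.19% at 19 days, and the summed nuclei hold 4547966 and 1569754 counts on shared genes. The median nucleus had 1852 counts at 4 weeks and 2029.5 at 19 days. Thinned to 1200 counts each, the median nucleus showed 884 genes at 4 weeks (2049 nuclei) and 901 at 19 days (681 nuclei), with 1214 and 1265 unthinned, and 32 and 3 shallower nuclei were left out. The ribosomal DNA unit on chromosome 3 took more of the 19-day library: AT3G06355, a noncoding gene beside the 18S rRNA gene, stood at 13557 CPM at 4 weeks and 28143 at 19 days. Most counts outside nuclei lay in barcodes with at least 100 and under 200 counts, 74657 of them at 4 weeks and 54263 at 19 days, and list ratios in these low-count barcodes are given beside those of the nuclei.

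A total of 15843 genes reached 50 counts in the sum of the 4-week and 19-day nuclei and were compared. The 4-week level was at least 2-fold above the 19-day level in 1526 of them (9.63%) and at least 2-fold below it in 802 (5.06%), with intervals lying wholly past 2-fold for 549 and 347. Because the 4-week nuclei hold more counts, a gene high at 4 weeks reaches 50 counts at a lower CPM than a gene high at 19 days. The minimum thus admits higher genes more readily than lower ones, and the 2 shares are not read against each other. The median log2 ratio was 0.06. The d14 library, which shares its age and counting software with the wild type, was past 2-fold of the wild type in 728 of 12950 genes (5.62%). Because both 4-week ratios use the same 4-week library, wild-type and d14 values are only given side by side: 866 of the 1526 higher genes and 403 of the 802 lower genes were past 2-fold in the same direction against d14 as well. Genes were grouped into 35 lists of 578 genes in all, of which 412 reached 50 counts, called tested from here on, and 166 did not. The shares over all genes, 9.63% higher and 5.06% lower, are the background for every count of list members below. The 13 reference genes tested, such as actins and ubiquitin-conjugating enzymes, held 0 members past 2-fold and a median log2 ratio of 0.02, with a summed ratio of 1.06 in nuclei and 1.23 in the low-count barcodes. Markers of other organs were scarce in both libraries. The root tip and root hair list summed to 5.28 CPM at 4 weeks and 7.64 at 19 days, and the list of leaf, guard cell and shoot tip genes to 70.1 and 49.1, most of it from AS1 (AT2G37630, overlap), a leaf regulator that also acts in stems.

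**Figure D1:**
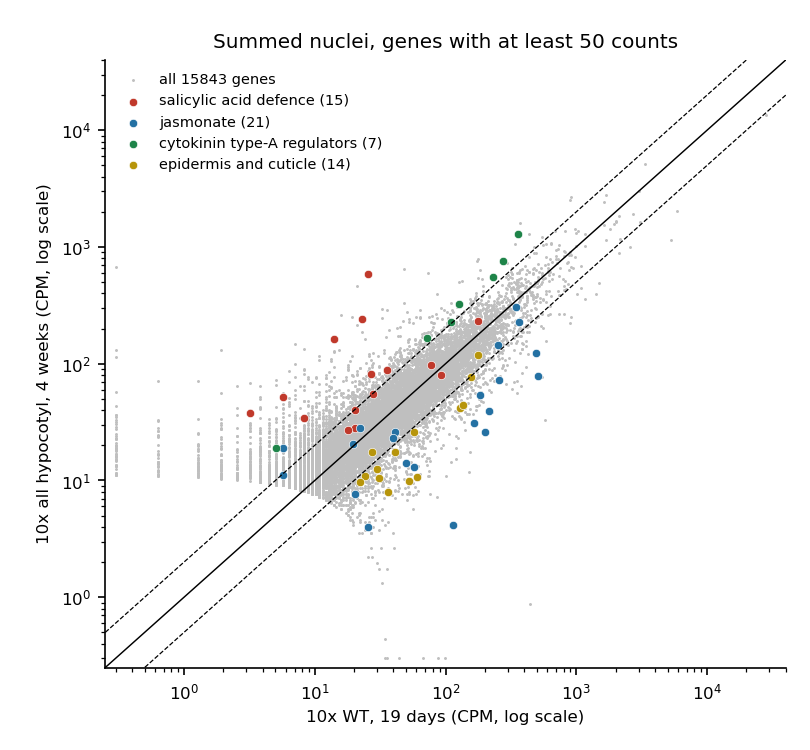
Each point is a gene with at least 50 counts; the x axis gives its CPM in summed 19-day wild-type nuclei and the y axis in summed 4-week nuclei, both on log scales, with values under 0.3 CPM drawn at 0.3. The solid line marks equal CPM and the dashed lines 2-fold. Salicylic acid genes (red) and type-A response regulators (green) lie mostly above the diagonal, jasmonate genes (blue) and epidermis genes (yellow) mostly below it.

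Salicylic acid defence genes held the largest ratio among all genes with at least 10 counts in each library. Of 15 members tested, 8 were at least 2-fold higher at 4 weeks and 0 lower (background 9.63% and 5.06%), and the median log2 ratio was 1.32. PR2 (AT3G57260), a secreted beta-1,3-glucanase that accumulates in systemic acquired resistance, stood at 590.4 CPM at 4 weeks, 25.5 in the 19-day wild type and 89.9 in d14, a ratio of 23.2 (17 to 32.5). The 3 VASA-seq plates of 4-week nuclei gave 261, 246 and 190.5 CPM, so that all 4-week libraries lay above both 19-day libraries. PR5 (AT1G75040), a thaumatin-like antifungal protein, stood at 162 CPM against 14.0 and 28.9 in d14, a ratio of 11.5 (7.56 to 18.5).

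Of the regulators of the pathway, WRKY70 (AT3G56400), WRKY54 (AT2G40750) and NIMIN1 (AT1G02450) had the largest ratios of the 4-week droplets to the wild type. WRKY70, a transcription factor that acts between salicylic acid and jasmonate signalling, stood at 240.3 CPM at 4 weeks, 22.9 in the wild type and 53.7 in d14, a ratio of 10.5 (7.52 to 15.0). Its close relative WRKY54 had a ratio of 9.01 (4.67 to 20.0). NIMIN1, a protein that binds the salicylic acid receptor NPR1 (AT1G64280, overlap), stood at 37.6, 3.19 and 24.8 CPM in the same order of libraries. Genes that act in making the hormone differed less evenly: PBS3 (AT5G13320), which conjugates isochorismate to glutamate, had a ratio of 4.12 (2.34 to 7.90) and SARD1 (AT1G73805, overlap), a factor that switches on synthesis, 3.06 (2.22 to 4.31), while isochorismate synthase ICS1 (AT1G74710) stood at 1.39 (0.939 to 2.12) and the exporter EDS5 (AT4G39030, overlap) at 0.861 (0.708 to 1.05). PAD4 (AT3G52430), a lipase-like partner of EDS1 (AT3G48090) in immunity, had a ratio of 2.50 (1.89 to 3.37), whereas EDS1 itself stood at 98.3, 77.1 and 176 CPM and was highest in d14. The plates stood above the wild type in part: PBS3 at 46.9, 19.5 and 5.37 CPM and PAD4 at 48.7, 40.5 and 25 CPM, against 8.28 and 35.7 in the wild type, and NIMIN1 at 5.35, 2.89 and 2.68 CPM. The classical marker PR1 (AT2G14610) had 3 counts at 4 weeks and 0 at 19 days and was not tested.

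Summed over the list, salicylic acid genes amounted to 1868 CPM at 4 weeks, 579.7 in the wild type and 766 in d14. The summed ratio was 3.22 in nuclei and 6.36 in the low-count barcodes, where PR2 alone stood at 1703 and 71.3 CPM. The plates gave 968, 946 and 650.1 CPM for the list. Defence genes outside the list were also among the 12 largest ratios. LURP1 (AT2G14560), named for its late upregulation in response to a downy mildew parasite, had 99.4 CPM against 7.01. AT4G10500, also named DLO1, encodes an oxygenase that hydroxylates salicylic acid, and it stood at 134 against 8.28 CPM. PNP-A (AT2G18660), a secreted natriuretic peptide-like protein, stood at 250 against 19.1 CPM. On the plates LURP1 stood at 7.13, 15.9 and 16.99 CPM, the first close to the wild type and below the 8.27 of d14. AT4G10500 stood at 22.6, 26.8 and 21.5 CPM on the plates, above the wild type and the 11.9 of d14. PNP-A stood at 64.7, 83.2 and 40.2 CPM on the plates, the last below the 47.03 of d14. W-boxes (TTGACC or TTGACT, either strand), the motif WRKY factors bind, occurred within 250 bases before the start of 3 of the 15 tested members, against 28.3% of all 15842 promoters searched.

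Jasmonate genes formed the opposite extreme. Of 21 members tested, 12 were at least 2-fold lower at 4 weeks and 1 higher (background 5.06% and 9.63%), with a median log2 ratio of -1.75. JAZ proteins are repressors that the hormone's receptor marks for destruction, and the JAZ genes are themselves switched on by the signal, a negative feedback. JAZ9 (AT1G70700), the lower JAZ gene with the most counts, stood at 124 CPM at 4 weeks, 489 in the wild type and 410.3 in d14, a ratio of 0.254 (0.228 to 0.284). JAZ10 (AT5G13220, overlap) had the lowest ratio of all genes with at least 10 counts in each library: 19 counts or 4.18 CPM at 4 weeks, 178 counts or 113 CPM in the wild type and 47.5 CPM in d14, a ratio of 0.0368 (0.0217 to 0.0593). JAZ2 (AT1G74950), JAZ5 (AT1G17380), JAZ6 (AT1G72450), JAZ7 (AT2G34600) and JAZ8 (AT1G30135) had ratios between 0.155 and 0.297. JAZ1 (AT1G19180), at 0.571 (0.503 to 0.648), did not pass 2-fold, JAZ3 (AT3G17860) stood at 1.26 (0.863 to 1.89), and JAZ4 (AT1G48500) was the member at least 2-fold higher at 4 weeks, with 87 against 9 counts and a ratio of 3.34 (1.68 to 7.54).

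Some enzymes of synthesis and breakdown were among the lower members. OPR3 (AT2G06050), the peroxisomal reductase that makes the jasmonate precursor, stood at 78.5 CPM at 4 weeks against 506 and 322 in d14, a ratio of 0.155 (0.137 to 0.176). The lipoxygenases LOX3 (AT1G17420) and LOX4 (AT1G72520), which begin the pathway, had ratios of 0.131 (0.105 to 0.163) and 0.184 (0.153 to 0.222), whereas LOX2 (AT3G45140), the main leaf enzyme, stood at 1.05 (0.691 to 1.63). CYP94B3 (AT3G48520), which inactivates the active conjugate, had a ratio of 0.283 (0.200 to 0.399). The related CYP94C1 (AT2G27690) stood on the other side of 1, at 1.96 (0.954 to 4.52), and AOS (AT5G42650) stayed within 2-fold at 0.636 (0.466 to 0.877). MYC2 (AT1G32640, overlap), the factor that JAZ proteins hold back, stood at 228 against 367 CPM and stayed within 2-fold. The storage proteins VSP1 (AT5G24780) and VSP2 (AT5G24770), classical jasmonate outputs, also stayed within 2-fold of the wild type, at ratios of 0.590 and 0.891, and both were lower in d14 (121 CPM of VSP2) than at 4 weeks (306 CPM). The summed list came to 1281 CPM at 4 weeks, 3388 in the wild type and 2479.5 in d14, with 1018, 909 and 867 CPM on the plates, and its ratio was 0.378 in nuclei and 0.324 in low-count barcodes.

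MYC2 binds G-boxes, and the 6-letter core CACGTG, which reads the same on both strands, lay within 250 bases before the annotated start of 5 of the 21 tested members (23.8%), against 7.39% of all 15842 promoters of tested genes. Of the 12 lower members, 3 held it, and their windows are shown to give the position of the motif in genes that were at least 2-fold lower. Each window is the 250 bases before the RefSeq gene start of the build TAIR10.1, read along the gene's strand, with the G-box in capitals. It began 66 bases before the start in JAZ2 (chr1:28150447-28150696, minus strand), 34 in JAZ7 (chr2:14572780-14573029, plus strand) and 10 in JAZ8 (chr1:10596102-10596351, plus strand).
JAZ2: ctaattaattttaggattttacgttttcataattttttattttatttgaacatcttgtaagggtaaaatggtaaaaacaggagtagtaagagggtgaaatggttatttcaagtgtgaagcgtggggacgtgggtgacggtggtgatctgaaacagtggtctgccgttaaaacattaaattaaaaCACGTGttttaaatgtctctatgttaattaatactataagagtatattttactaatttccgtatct
JAZ7: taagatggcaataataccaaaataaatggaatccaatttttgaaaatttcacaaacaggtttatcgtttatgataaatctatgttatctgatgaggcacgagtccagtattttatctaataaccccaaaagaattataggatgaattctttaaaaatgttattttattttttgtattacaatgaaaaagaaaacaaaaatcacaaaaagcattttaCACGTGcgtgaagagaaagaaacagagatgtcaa
JAZ8: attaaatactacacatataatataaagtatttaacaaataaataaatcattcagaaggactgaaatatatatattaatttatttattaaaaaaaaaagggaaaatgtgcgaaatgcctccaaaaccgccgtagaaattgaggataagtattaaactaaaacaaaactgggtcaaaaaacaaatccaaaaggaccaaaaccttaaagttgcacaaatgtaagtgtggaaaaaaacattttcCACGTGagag
These 3 genes stood at 30.8, 13.0 and 3.96 CPM at 4 weeks and 165, 57.3 and 25.5 CPM in the wild type. JAZ10, with the lowest ratio, and JAZ9 held no such match in this window, while JAZ3, within 2-fold, did.

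Early wound and touch genes, which respond within minutes to mechanical stimuli, held fewer members past 2-fold, 3 lower and 0 higher of 15, and a median log2 ratio of -0.62. RRTF1 (AT4G34410, overlap), an ERF factor of the redox response, stood at 33.0 CPM at 4 weeks, 580.4 in the wild type and 430.0 in d14, a ratio of 0.0568 (0.0475 to 0.0676), and at 105, 67.3 and 88.5 CPM on the plates. CBF3 (AT4G25480, overlap), a cold-response factor, and WRKY40 (AT1G80840, overlap), which represses defence genes, were the other lower members, at ratios of 0.389 and 0.482. On the plates CBF3 stood at 148, 118 and 179 CPM, above the 94.9 of the wild type and the 111 of d14, so that the 4-week droplet library stood alone in its low level. TCH3 (AT2G41100, overlap), a touch-induced calmodulin-like gene, stood at 1.17 (1.02 to 1.34) and ZAT10 (AT1G27730), a zinc finger repressor, at 0.902 (0.798 to 1.02), so that members of the list stood on both sides of 1.

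Among cold and water-deficit genes 1 of 7 was at least 2-fold lower, RD29A (AT5G52310), a marker of osmotic stress, at 8.14 against 43.3 CPM. The dehydrins COR47 (AT1G20440) and ERD10 (AT1G20450), which protect cell structures during drying, gave ratios of 0.542 (0.519 to 0.565) and 0.698 (0.673 to 0.724). Heat shock genes held 3 higher members of 7 (background 9.63%). ROF2 (AT5G48570), a co-chaperone, stood at 50.4 against 12.1 CPM, with 16, 10.9 and 24.1 CPM on the plates. HSP70-4 (AT3G12580) stood at 20.7 against 7.01 CPM, with 16.5 in d14 and a ratio against d14 of 1.25 (0.829 to 1.93).

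**Figure D2:**
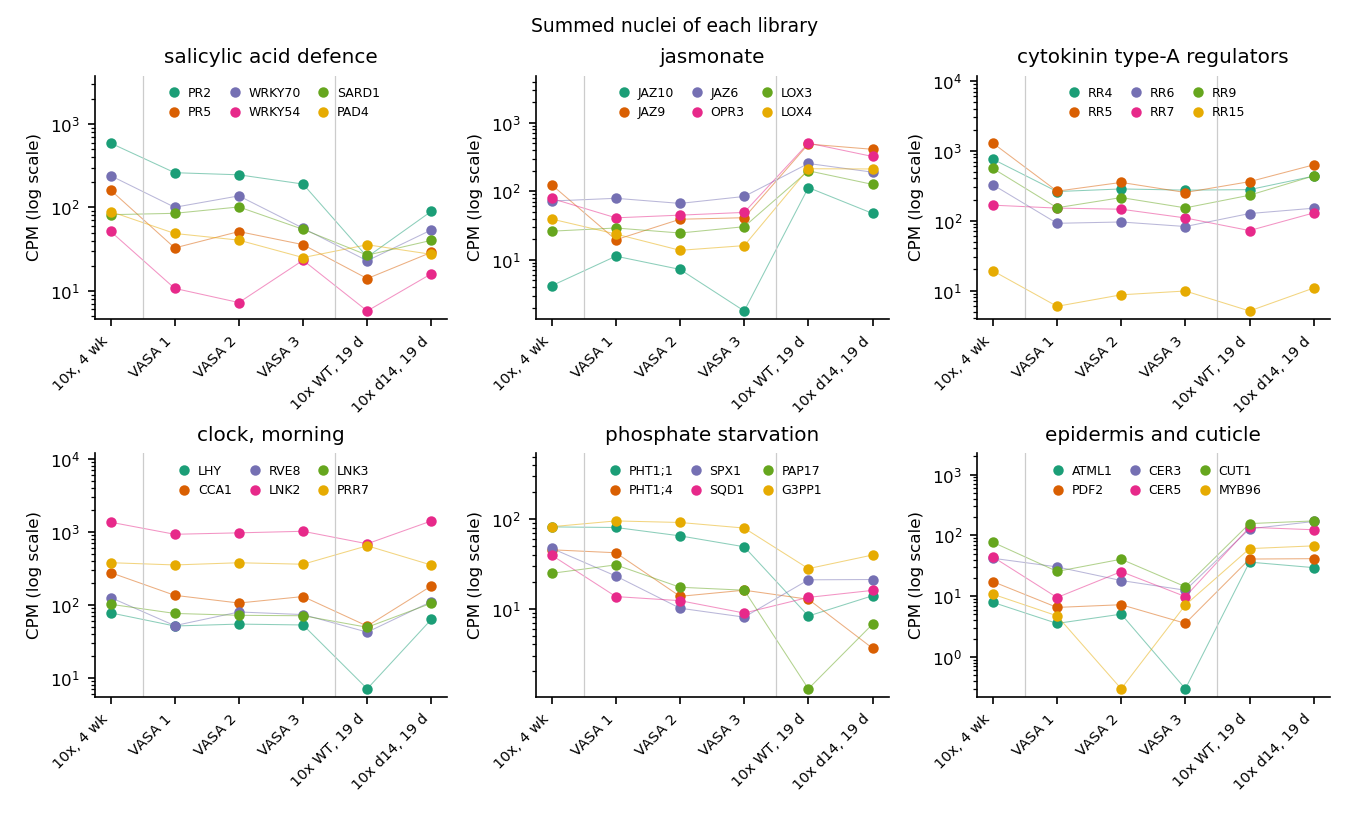
CPM on a log scale of 6 members of each of 6 lists in the summed nuclei of the 4-week droplet library, the 3 VASA-seq plates of 4-week nuclei, the 19-day wild type and 19-day d14; thin lines join the values of 1 gene and 0 is drawn at 0.3. PR2 and WRKY70 lie higher in every 4-week library than in either 19-day library, OPR3, LOX3 and LOX4 lower, while LHY is low in the 19-day wild type and not in d14.

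Type-A response regulators, genes that cytokinin switches on directly and whose products damp its signal, were all on 1 side. All 7 members tested were at least 2-fold higher at 4 weeks, with a median log2 ratio of 1.37. RR5 (AT3G48100) stood at 1284 CPM at 4 weeks against 361 in the wild type and 627 in d14, a ratio of 3.56 (3.27 to 3.89). RR4 (AT1G10470) had 756, 277 and 433 CPM and RR9 (AT3G57040, overlap) 558, 231 and 436 CPM in the same libraries. The lowest ratio of the family was that of RR8 (AT2G41310, overlap), 2.05 (1.74 to 2.42), and the highest that of RR15 (AT1G74890), 3.75 (1.82 to 8.97), which had only 8 counts at 19 days.

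Each of the 7 lay between the wild type and the 4-week value in d14. The summed ratio was 2.82 in nuclei and 1.47 in low-count barcodes, a smaller difference outside nuclei. On the plates, RR5 stood at 264, 352 and 252 CPM and RR4 at 260.2, 284 and 273, levels nearer to the 19-day wild type than to the 4-week droplet library. RR8 stood at 1762, 1123 and 1715 CPM on the plates, above every droplet library, and RR9 at 153, 213 and 152, below all of them. The plates differ from the droplets in method. Of 45 tested genes from a published list of cytokinin-induced genes, 17 were higher and 1 lower, with a median log2 ratio of 0.69. All 7 tested type-A genes are also in that published list, so the counts of both lists share them.

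Auxin-response genes gave 4 higher members of 9 and 0 lower, with a median log2 ratio of 0.84 against the wild type and 0.13 over the same members against d14. Aux/IAA genes encode short-lived repressors that auxin both destroys and re-induces. IAA3 (AT1G04240, overlap) stood at 289.8 CPM at 4 weeks, 111 in the wild type and 251 in d14, IAA14 (AT4G14550) at 134, 51.0 and 123, and IAA19 (AT3G15540) at 40.0, 12.1 and 41.9. For these 3 genes d14 was near the 4-week droplet library and the wild type was lower than both. The plates did not share the 4-week droplet level: IAA3 stood at 95.6, 88.3 and 111 CPM, IAA14 at 8.91, 12.3 and 9.84, and the summed list at 440.1, 456 and 459.6 CPM, below the 634 of the wild type and the 1085 of the 4-week droplets. IAA1 (AT4G14560) had a ratio of 0.964 (0.837 to 1.11). The published list of auxin-induced genes held 23 higher and 10 lower members of 119.

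Among clock genes that peak in the morning, 4 of 11 were at least 2-fold higher at 4 weeks and 0 lower (background 9.63% and 5.06%). LHY (AT1G01060) and CCA1 (AT2G46830) are MYB factors that peak at dawn and repress evening genes. LHY stood at 77.4 CPM at 4 weeks, 7.01 in the wild type and 63.0 in d14, a ratio of 11 (6.10 to 22.3), and CCA1 at 277, 51.0 and 181 CPM, a ratio of 5.43 (4.33 to 6.89). RVE8 (AT3G09600), a related activator, had a ratio of 2.99 (2.32 to 3.92). Against d14, LHY stood at 1.23 (0.996 to 1.52) and CCA1 at 1.52 (1.35 to 1.72), so that 1 of the 19-day libraries was close to the 4-week library in these genes and the other was not. The later-peaking PRR7 (AT5G02810) went the other way, 378 CPM at 4 weeks against 646 in the wild type and 351 in d14.

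Of the evening genes, 5 were tested and 0 passed 2-fold. GI (AT1G22770), a large scaffold protein of the afternoon, stood at 40.7, 80.9 and 48.6 CPM and TOC1 (AT5G61380), an evening repressor, at 47.5, 68.8 and 45.5 CPM. PRR5 (AT5G24470), which had too few counts for the test, had 12 counts at 4 weeks, 32 in the wild type and 2 in d14. The time of day at which each pool was taken is not given in the sources used here. The evening element AAAATATCT (either strand), a site that LHY and CCA1 bind, lay within 250 bases before the start of TOC1 and LUX (AT3G46640, overlap) among the 5 evening genes and of 0 of the 11 morning genes, against 2.46% of all promoters. The TOC1 window (chr5:24674713-24674962, plus strand, TAIR10.1) is shown because it holds the element in a gene that LHY and CCA1 are known to repress, here with the reverse complement in capitals, beginning 151 bases before the start.
TOC1: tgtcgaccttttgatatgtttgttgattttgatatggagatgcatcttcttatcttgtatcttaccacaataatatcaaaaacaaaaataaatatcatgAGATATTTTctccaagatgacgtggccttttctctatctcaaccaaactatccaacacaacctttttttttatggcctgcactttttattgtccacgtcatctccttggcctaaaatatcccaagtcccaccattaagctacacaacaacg

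**Figure D3:**
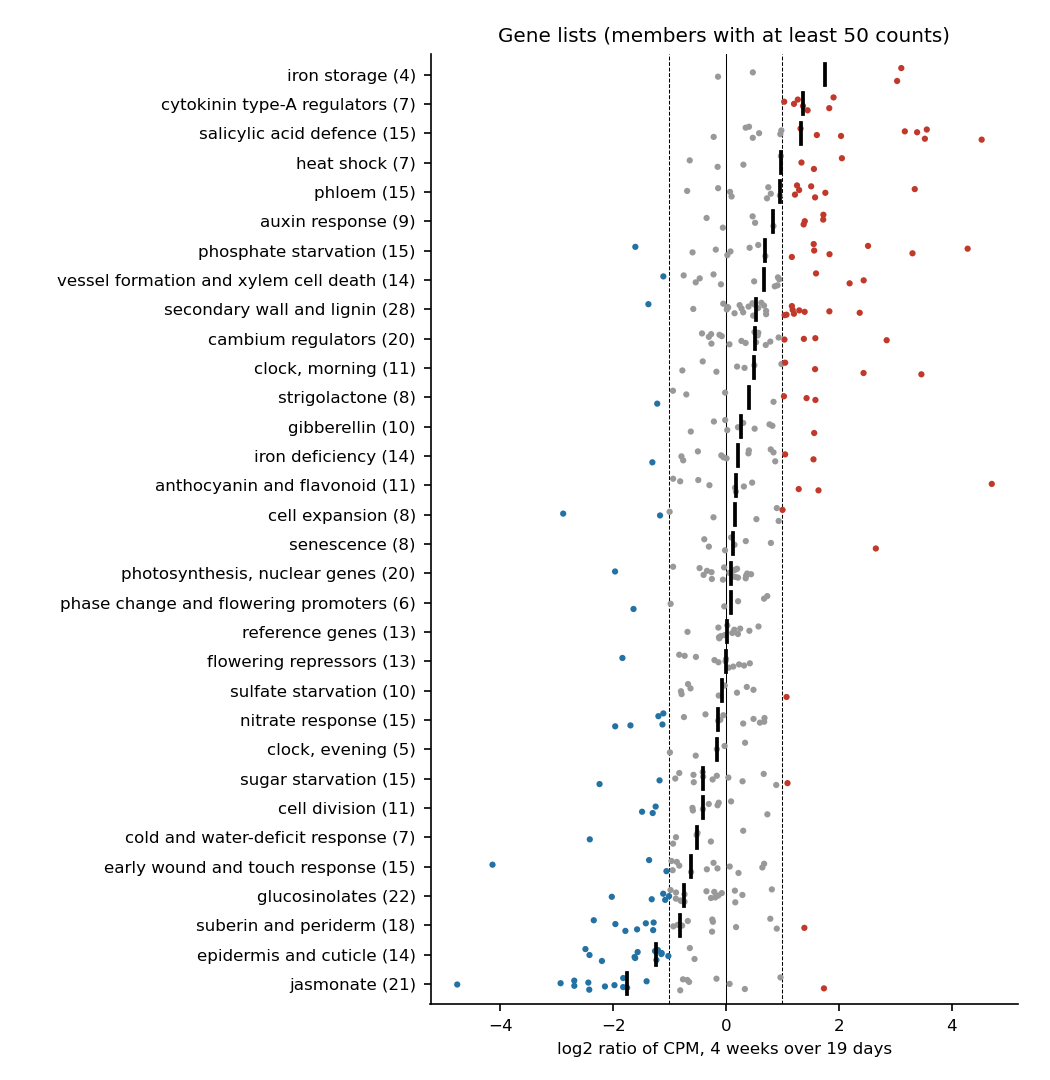
The log2 ratio of CPM, 4 weeks over 19 days, of each tested member of the lists with at least 4 of them, with the number tested in parentheses; bars are medians, dashed lines mark 2-fold, and red and blue points are at least 2-fold higher and lower. Medians run from 1.76 for iron storage to -1.75 for jasmonate, with the reference genes at 0.02.

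Cambium regulators were present in both libraries. Of 20 tested members, 4 were at least 2-fold higher at 4 weeks and 0 lower (background 9.63% and 5.06%), with a median log2 ratio of 0.52. The higher members were LBD factors, plant transcription factors of which several act in radial growth. LBD4 (AT1G31320) stood at 171 CPM against 65.6 in the wild type and 76.0 in d14, a ratio of 2.61 (2.12 to 3.23), and LBD11 (AT2G28500) at 68.8, 22.9 and 26.9 CPM. The ratios of LBD3 (AT1G16530) and LBD1 (AT1G07900) were 2.05 and 7.21, the latter from 9 counts at 19 days. On the plates LBD4 stood at 202, 211 and 218 CPM, LBD11 at 25.5, 52.1 and 17.9 and LBD1 at 0.594, 9.40 and 7.15, so that only some of the plates lay above the wild type for LBD11 and LBD1. WOX4 (AT1G46480), the homeobox factor that keeps cambium cells dividing, stood at 345 against 212 CPM, a ratio of 1.63 (1.45 to 1.84), and its upstream receptor PXY (AT5G61480) at 124 against 118 CPM, a ratio of 1.04 (0.884 to 1.24). PXY and SMXL5 (AT5G57130) promoters drive the reporters of the 4-week line, and SMXL5 stood at 0.837 (0.661 to 1.07).

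The summed cambium ratio was 1.40 in nuclei and 0.960 in low-count barcodes, where the list's median log2 ratio was -0.0080. Of the cell division genes tested, 3 of 11 were at least 2-fold lower and 0 higher, with a median log2 ratio of -0.41 against the wild type, but 0.21 against d14. The lower members were CDKB2;2 (AT1G20930, overlap), a mitotic kinase, at 33 against 28 counts, KN (AT1G08560, overlap), the syntaxin of the cell plate, at 30 against 29 counts, and PLE (AT5G51600), a microtubule bundler, at 33 against 27 counts, with intervals that all extend above a ratio of 0.5. CYCD3;1 (AT4G34160, overlap), a cytokinin-responsive cyclin, had a ratio of 0.916 (0.760 to 1.11).

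In the vessel list, 3 of 14 were at least 2-fold higher and 1 lower. VND7 (AT1G71930), a NAC factor that can by itself turn cells into vessel elements, had 126 against 8 counts, a ratio of 5.44 (2.68 to 12.9), its relative VND4 (AT1G12260) 53 against 4 counts, which is 11.7 CPM at 4 weeks against 13.4 in d14, and XND1 (AT5G64530), a NAC factor that holds back xylem differentiation, 114 against 13 counts. RNS3 (AT1G26820), a ribonuclease, was lower, with 43 against 32 counts. The median log2 ratio of the list was 0.68 against the wild type and -0.52 against d14. Outside nuclei it was -0.15, and the summed ratio was 1.15 in nuclei and 0.784 in low-count barcodes. The summed list stood at 186, 143 and 123 CPM on the plates, below the 499 of the wild type, with VND7 at 8.32, 5.79 and 3.58, VND4 at 0, 1.45 and 2.68 and XND1 at 3.56, 3.62 and 2.68. VND1 (AT2G18060) shows this order of libraries, at 29.3 CPM in the wild type, 53.4 at 4 weeks and 115 in d14.

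Secondary wall and lignin genes held 9 higher members of 28 and 1 lower (background 9.63% and 5.06%). The median log2 ratio was 0.54 against the wild type and 0.014 against d14. The summed list stood at 2468 CPM at 4 weeks, 1924 in the wild type and 2488 in d14. IRX8 (AT5G54690, overlap), a xylan synthesis enzyme, stood at 26.4 CPM against 5.10 and 24.3 in d14, a ratio of 5.18 (2.54 to 12.3). The cellulose synthases IRX1 (AT4G18780, overlap) and IRX3 (AT5G17420, overlap) had ratios of 2.11 (1.5 to 3.02) and 2.06 (1.35 to 3.25), but their d14 levels, 79.1 and 36.2 CPM, lay above the 4-week levels of 53.6 and 34.1. HCT (AT5G48930), an enzyme of monolignol synthesis, stood at 110.4 against 49.1 CPM, a ratio of 2.25 (1.77 to 2.90). FAH1 (AT4G36220, overlap), the hydroxylase that opens the branch to syringyl lignin, was the lower member, at 27 against 70.1 CPM, a ratio of 0.386 (0.296 to 0.504) in nuclei and 1.05 in low-count barcodes. General phenylpropanoid enzymes stayed near 1, among them C4H (AT2G30490) at 1.02 (0.885 to 1.18) and PAL1 (AT2G37040) at 1.21 (1.03 to 1.43). The plates were low in these genes, with IRX1 at 1.19, 19.5 and 8.05 CPM, IRX3 at 5.94, 25.3 and 1.79 and IRX8 at 1.19, 3.62 and 0.894, and the summed list at 1416, 1593 and 1387 against 1924 in the wild type. A published list of root xylem markers held 5 higher members of 15 with a median of 0.92 against the wild type and -0.14 against d14.

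Phloem genes held 7 higher members of 15 and 0 lower (background 9.63% and 5.06%), with a median log2 ratio of 0.96. NAKR1 (AT5G02600, overlap), a heavy-metal-domain protein of phloem that takes part in long-distance transport, stood at 108 CPM against 45.2 and 27.9 in d14, a ratio of 2.40 (1.87 to 3.12). OPS (AT3G09070), a membrane protein that promotes protophloem fate, had a ratio of 2.46 (1.69 to 3.68), APL (AT1G79430), the MYB factor needed for phloem identity, 2.99 (1.83 to 5.18), and PEAR2 (AT5G02460), a mobile DOF factor, 2.85 (1.84 to 4.61). BRX (AT1G31880), a regulator of protophloem, had 59 against 2 counts, a ratio of 10.2 (2.7 to 86.0). SUC2 (AT1G22710), the sucrose loader of companion cells, stood at 1.66 (0.941 to 3.11) and SMXL4 (AT4G29920), a factor of early phloem formation, at 0.621 (0.435 to 0.896).

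Published marker lists gave a split picture of phloem. Leaf companion cell markers held 9 higher members of 14 and a median log2 ratio of 1.27, and root phloem markers 7 of 12 and 1.13. A leaf phloem parenchyma list named PP2 held 7 lower members of 18, 0 higher and a median of -0.85, whereas the list named PP1 held 5 higher of 11 and a median of 0.85. In d14, PEAR2 and BRX stood at 43.9 and 15.5 CPM, above their 4-week levels of 41.8 and 13.0, and PEAR2 at 2.38, 47.7 and 20.6 on the plates. The summed ratio of the phloem genes was 1.68 in nuclei and 1.01 in low-count barcodes, where NAKR1, APL and BRX stood at 0.891, 0.971 and 0.743.

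Epidermis and cuticle genes were lower at 4 weeks in 12 of 14 tested members, with 0 higher and a median log2 ratio of -1.24 (-1.36 against d14). ATML1 (AT4G21750) and PDF2 (AT4G04890, overlap), the homeobox factors that give cells epidermal identity, stood at 7.92 and 17 CPM at 4 weeks, 36.3 and 40.8 in the wild type and 29.5 and 41.3 in d14. CER3 (AT5G57800) and CER5 (AT1G51500), a wax synthesis enzyme and a wax exporter, had ratios of 0.328 (0.268 to 0.402) and 0.326 (0.267 to 0.397), and CUT1 (AT1G68530), the condensing enzyme for very long chain fatty acids, 0.493 (0.418 to 0.583). MYB96 (AT5G62470), a factor that raises wax synthesis in drought, stood at 10.8, 60.5 and 67.2 CPM. Outside nuclei CUT1 went the other way, at a ratio of 1.66 in the low-count barcodes, where CER5 stood at 0.677 and ATML1 at 0.506. FDH (AT2G26250), another condensing enzyme, stood at 0.680 (0.587 to 0.789) and CYP86A8 (AT2G45970), a fatty acid hydroxylase of cutin, at 0.642 (0.438 to 0.953).

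The difference was larger in nuclei than outside them. The list summed to 429.6 CPM at 4 weeks and 991 in the 19-day nuclei, a ratio of 0.434 (0.406 to 0.464), but to 467 and 552 CPM in the low-count barcodes, a ratio of 0.845. The published root epidermis list held 2 higher and 3 lower members of 12.

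Suberin and periderm genes were lower in 7 of 18 and higher in 1 (background 5.06% and 9.63%). The median log2 ratio was -0.81 against the wild type and 0.11 against d14. LTPG15 (AT2G48130), a lipid transfer protein for suberin monomers, stood at 43.8 CPM at 4 weeks, 170.1 in the wild type and 74.9 in d14, a ratio of 0.257 (0.213 to 0.310). The hydroxylase CYP86A1 (AT5G58860) and the feruloyl transferase ASFT (AT5G41040, overlap) had ratios of 0.291 (0.211 to 0.400) and 0.336 (0.255 to 0.442), and the regulator MYB84 (AT3G49690) 0.374 (0.268 to 0.522). ASFT and MYB84 stood at 20.2 and 9.30 CPM in d14, below their 4-week levels of 23.7 and 17.2. FAR1 (AT5G22500, overlap), a fatty acyl reductase, was the higher member, at 25.1 against 9.56 CPM. The endodermis and cortex list had 2 tested members, of which 1 was at least 2-fold lower.

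Glucosinolates are sulfur-rich defence compounds of the mustard family, and 5 of 22 tested genes for making and moving them were at least 2-fold lower at 4 weeks, 0 higher, with a median log2 ratio of -0.73. GSTF11 (AT3G03190, overlap), a glutathione transferase of the aliphatic branch, stood at 37.2 CPM against 151 and 161 in d14, a ratio of 0.246 (0.201 to 0.301). CYP79F1 (AT1G16410) and CYP79B3 (AT2G22330), which start the aliphatic and the indole branch, had ratios of 0.474 (0.417 to 0.539) and 0.463 (0.406 to 0.528). MAM1 (AT5G23010), which elongates methionine side chains, stood at 419, 722 and 1079 CPM. MYB28 (AT5G61420), the main aliphatic regulator, stood at 1.12 (1.000 to 1.26) and the transporter GTR2 (AT5G62680, overlap) at 1.76 (1.41 to 2.21). The summed ratio was 0.670 in nuclei and 0.558 in low-count barcodes.

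Nutrient lists differed in direction. Phosphate starvation genes held 7 higher members of 15 and 1 lower, with a median log2 ratio of 0.70 and a summed ratio of 1.74 in nuclei and 1.73 in low-count barcodes. PHT1;1 (AT5G43350), a high-affinity phosphate importer, stood at 82.0 CPM at 4 weeks, 8.28 in the wild type and 14.0 in d14, a ratio of 9.90 (5.72 to 18.8), and at 80.8, 65.1 and 49.2 CPM on the plates, so that all 4-week libraries lay above both 19-day libraries. G3PP1 (AT3G47420) and SRG3 (AT3G02040, overlap), which act on glycerol-3-phosphate and phospholipid breakdown products, had ratios of 2.94 (2.15 to 4.12) and 5.73 (3.28 to 10.9), and the phosphate sensor SPX1 (AT5G20150) 2.25 (1.55 to 3.35), with 23.2, 10.1 and 8.05 CPM on the plates against 21.0 in the wild type. PAP17 (AT3G17790, overlap), an acid phosphatase, had 113 counts against 2, a ratio of 19.5 (5.28 to 163). The phospholipase NPC4 (AT3G03530) was the lower member, at 0.329 (0.208 to 0.519), and IPS1 (AT3G09922), a noncoding RNA strongly induced in starved plants, had 0 counts in both. P1BS sites (GNATATNC, either strand), which the regulator PHR1 binds, occurred within 250 bases before the start of 4 of the 15 tested members, against 5.57% of all promoters. Only 1 of the 7 higher members, SRG3, held such a site, and so did the lower member NPC4. The other holders, AT4 (AT5G03545) and PS2 (AT1G73010), stayed within 2-fold.

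Nitrate-response genes held 5 lower members of 15 and 0 higher (background 5.06% and 9.63%). The median log2 ratio was -0.14 against the wild type and -0.018 against d14. The lower members included the enzymes that reduce nitrate: NIA2 (AT1G37130) stood at 359 CPM against 1160.1 and 704 in d14, a ratio of 0.310 (0.289 to 0.331), NIA1 (AT1G77760) at 56.7, 221 and 128, and the nitrite reductase NIR1 (AT2G15620) at 66.6, 145 and 106 CPM. The plates gave 598, 534 and 542 CPM for NIA2, 163, 190.3 and 314 for NIA1 and 133, 79.6 and 131 for NIR1, so that NIA1 was above d14 on every plate and above the wild type on 1. G6PD3 (AT1G24280, overlap), which supplies reducing power in plastids, and the scaffold protein BT2 (AT3G48360) were the others, at ratios of 0.436 and 0.464. BT2 stood at 172 CPM at 4 weeks, 371 in the wild type and 174 in d14, and at 323, 218 and 151 on the plates. The transceptor NRT1.1 (AT1G12110) stood at 1.24 (1.06 to 1.45) and LBD38 (AT3G49940), a nitrate-induced repressor, at 1.60 (1.35 to 1.91).

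Of 4 iron storage genes tested, 2 were at least 2-fold higher and 0 lower. FER1 (AT5G01600, overlap), a ferritin that holds iron in plastids, stood at 188 CPM at 4 weeks, 22.9 in the wild type and 19.6 in d14, a ratio of 8.20 (5.87 to 11.8), and at 151, 95.5 and 81.4 CPM on the plates. VTL1 (AT1G21140), a vacuolar iron transporter, had 75 counts against 3, a ratio of 8.63 (2.84 to 42.8), with 7.72, 8.68 and 1.79 CPM on the plates against 1.91 in the wild type, while FER3 (AT3G56090) and FER4 (AT2G40300, overlap) stood at 0.908 (0.575 to 1.47) and 1.39 (0.921 to 2.17). The list's summed ratio was 3.92 in nuclei and 3.96 in low-count barcodes. Iron deficiency genes differed with the 19-day library used. Against the wild type 2 of 14 were higher and 1 lower, with a median log2 ratio of 0.21, and against d14 the median was -1.29. BTS (AT3G18290), a ligase that limits the iron response, stood at 212 CPM at 4 weeks, 161 in the wild type and 914 in d14.

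The sulfate starvation list had 1 higher member of 10, the root importer SULTR1;2 (AT1G78000) at 179 against 84.7 CPM, with 320.1, 189 and 76.0 on the plates. Sugar starvation genes split: DIN10 (AT5G20250, overlap), a raffinose synthase-like gene, stood at 70.1 against 331 CPM, a ratio of 0.212 (0.184 to 0.244), and BGLU30 (AT3G60140), a dark-induced glucosidase, at 208 against 97.5 CPM, a ratio of 2.13 (1.8 to 2.55), with 2 of 15 lower and 1 higher. On the plates BGLU30 stood at 111, 126 and 78.7 CPM. The median log2 ratio of the sugar starvation list was -0.40 against the wild type and 0.25 against d14. In the strigolactone list, 3 of 8 were higher and 1 lower. The receptor D14 (AT3G03990) stood at 44.6 against 16.6 CPM, a ratio of 2.69 (1.79 to 4.23), and its F-box partner MAX2 (AT2G42620) at 2.04 (1.31 to 3.33), while MAX4 (AT4G32810, overlap), a carotenoid-cleaving enzyme of synthesis, stood at 72.3 CPM at 4 weeks, 168 in the wild type and 884 in the mutant. CLAMT (AT4G36470), a methyltransferase late in synthesis, had a ratio of 3.0 (2.01 to 4.66).

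Flavonoid genes gave 3 higher of 11 (background 9.63%) and a median log2 ratio of 0.18 against the wild type. The higher members were early or branch enzymes. CHI (AT3G55120) stood at 51.7 against 16.6 CPM, with 20.2 in d14, and F3H (AT3G51240, overlap) at 156 against 63.7 CPM, with 274 in d14. FLS1 (AT5G08640), the flavonol synthase, had 76 counts against 1, a ratio of 26.2 (4.57 to 1049.6). In d14 FLS1 had 18 counts, and its ratio against d14 was 1.796 (1.064 to 3.192). Its ratio to the wild type in low-count barcodes was 5.648. The plates gave 3.56, 6.51 and 1.79 CPM for CHI and 27.9, 17 and 22.4 for F3H, all below the wild type, and 4.16, 0.723 and 0 for FLS1. The summed ratio of the list was 1.05 in nuclei and 0.630 in low-count barcodes. Late anthocyanin genes were at similar levels at 4 weeks and in the wild type, DFR (AT5G42800) at 59.6 and 47.8 CPM and GSTF12 (AT5G17220, overlap) at 169.8 and 238, and stood at 4.13 and 11.9 CPM in d14.

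Several lists showed few members past 2-fold, where the shares over all genes were 9.63% higher and 5.06% lower. Photosynthesis genes encoded in the nucleus held 1 lower of 20 and a median of 0.09. Flowering repressors held 1 lower of 13: FLC (AT5G10140, overlap), the vernalisation-sensitive repressor, stood at 1.04 (0.644 to 1.72), SVP (AT2G22540) at 0.912 (0.821 to 1.01) and SNZ (AT2G39250), an AP2-type repressor, at 17.2 against 61.2 CPM. Of the phase change and flowering promoters 6 were tested and 1 was lower, SPL9 (AT2G42200, overlap), an age-pathway factor, with 27 against 29 counts, while SOC1 (AT2G45660) stood at 1.16 (0.948 to 1.43) and the florigen FT (AT1G65480) had 0 counts in both. Senescence genes held 1 higher of 8, the NAC factor NAP (AT1G69490), with 128 against 7 counts and 7.13, 7.96 and 0 CPM on the plates against 4.46 in the wild type, and SAG12 (AT5G45890), a marker of late senescence, had 0 counts in both libraries. Gibberellin genes held 1 higher of 10, GA3OX1 (AT1G15550), which makes the active hormone, at 79.2 against 26.8 CPM in nuclei and 47.5 against 47.6 in low-count barcodes. Cell expansion genes held 1 higher and 2 lower of 8, with the aquaporin TIP2;1 (AT3G16240, overlap) at 2.01 (1.77 to 2.28) and the wall enzymes XTH9 (AT4G03210) and XTH18 (AT4G30280) at 0.445 and 0.135.

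**Figure D4:**
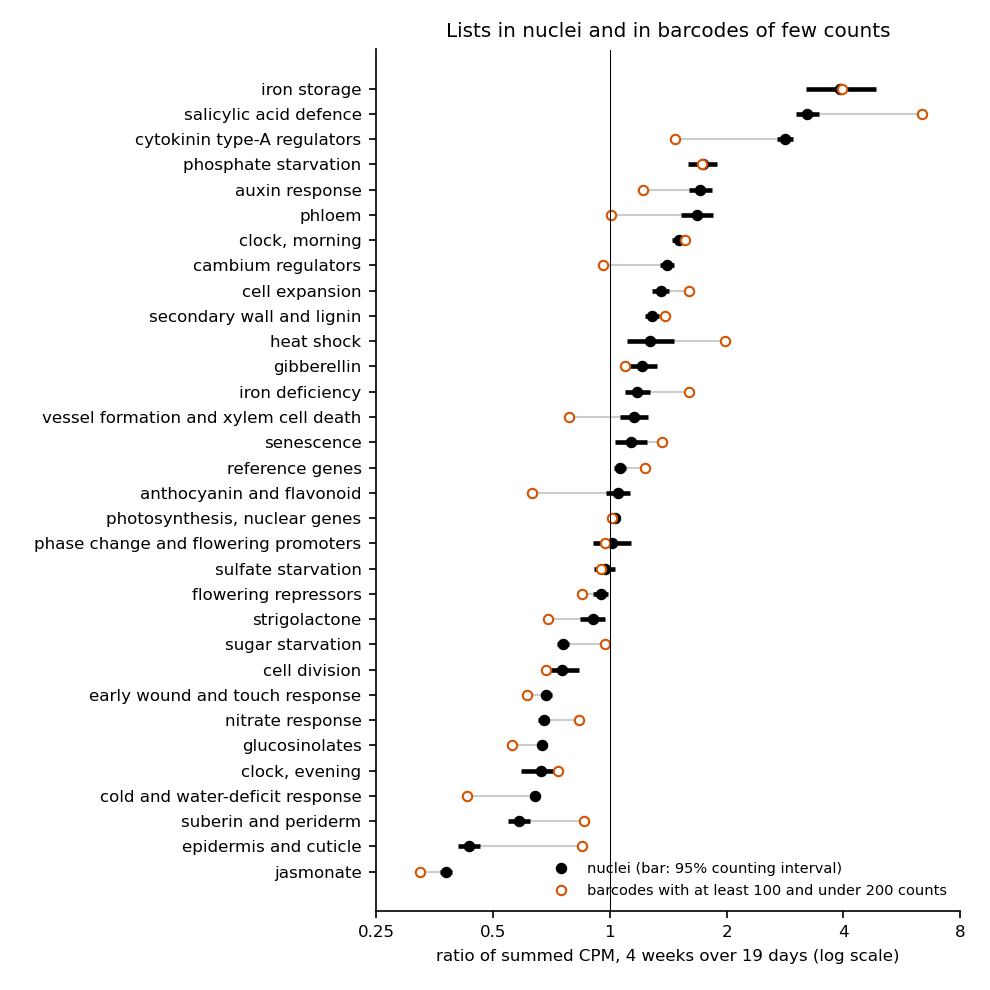
For each list with at least 4 tested members, the ratio of summed CPM, 4 weeks over 19 days, on a log scale, in nuclei (filled, with the 95% counting interval) and in barcodes with at least 100 and under 200 counts (open). Phosphate starvation and iron storage give nearly equal ratios in both, while the epidermis list stands at 0.434 in nuclei and 0.845 outside, and phloem at 1.68 and 1.01.

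Beyond the lists, the 12 largest ratios among genes with at least 10 counts in each library ran from 10.9 to 23.2. UMAMIT11 (AT2G40900), a member of an amino acid transporter family, stood at 651 CPM at 4 weeks, 48.4 in the wild type, 242 in d14 and 169, 229 and 171 on the plates. AT1G03200 (overlap), annotated as an uncharacterised protein and overlapping another gene, stood at 468, 21.0 and 32.6 CPM, and AT4G34881 (overlap) and AT1G58225, also uncharacterised, at 146 against 7.01 and 262 against 15.9 CPM. On the plates AT1G03200 stood at 26.1, 45.6 and 32.2 CPM, near the 19-day levels, and its ratio in low-count barcodes was 3.66. AT4G34881 stood at 42.2, 29.7 and 29.5 CPM on the plates, above its 12.4 in d14. AT1G58225 stood at 54.05, 41.96 and 16.99 CPM on the plates, the last below its 24.8 in d14. At 4 weeks, in the wild type and in d14, AT3G62040 (overlap), annotated as a haloacid dehalogenase-like hydrolase, had 86.4, 6.37 and 28.4 CPM. AT3G61210, annotated as a methyltransferase, had 69.7, 6.37 and 8.27 CPM in the same order. On the plates AT3G62040 stood at 26.7, 37.6 and 45.6 CPM, the first below its level in d14. AT3G61210 stood at 54.05, 51.4 and 54.55 CPM there, above both 19-day libraries. The remaining 6 were PR2, PR5, LURP1, AT4G10500, PNP-A and LHY.

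The 12 lowest ratios ran from 0.0368 to 0.102. Besides JAZ10 and RRTF1 they included 3 more AP2/ERF-type factors, DDF1 (AT1G12610) at 2.64 against 40.1 CPM, AT1G64380 at 11.9 against 150.3 and AT1G19210 (overlap) at 2.64 against 31.9. DDF1 stood at 41.3 CPM in d14 and 33.3, 21.7 and 54.5 on the plates, so that its low level was found in the 4-week droplet library and not on the 4-week plates. BAM5 (AT4G15210), a beta-amylase abundant in phloem, stood at 2.2 against 27.4 CPM and was also low in d14, at 6.20 CPM. AT4G19380, annotated as a fatty alcohol dehydrogenase, had 2.2, 25.5 and 53.7 CPM, and AT1G76240, a DUF241 protein, 7.26, 85.4 and 50.6 CPM. AT5G45280 (PAE11), a pectin acetylesterase, stood at 7.70 against 75.8 CPM. The other 3, AT2G27385 (extensin-like) and the noncoding AT2G08405 (overlap) and AT1G11185, had 12, 16 and 26 counts at 4 weeks and 42, 62 and 88 at 19 days. Of the 3, AT2G08405 and AT2G27385 were also low in d14, at 6.72 and 5.17 CPM.

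Genes with almost no counts on 1 side were given as bounds against 3 counts in the library at 0. AT2G01021, a short predicted reading frame that follows the 18S and 5.8S rRNA genes on chromosome 2, had 3055 counts at 4 weeks and 0 at 19 days, at least 351-fold higher, and MIR396a, a microRNA gene, 598 and 0 counts, at least 68.8-fold higher. AT5G22560, a protein-coding gene with 519 and 0 counts, was at least 59.7-fold higher, and AT3G52700 (overlap), uncharacterised, had 599 against 3 counts, a ratio of 68.9 (23.5 to 335). In the other direction AT1G25175 (overlap), a noncoding gene, had 4 against 690 counts, and AT2G07751, AT1G35516 (overlap) and the calcium-dependent protein kinase gene CPK1 (AT5G04870, overlap) had 0 counts at 4 weeks and were at least 149.7-fold, 133-fold and 101-fold lower. AT2G01021 and MIR396a had 0 counts in every barcode of d14 as well, and AT2G07751, AT1G35516 and CPK1 stood at 96.6, 81.1 and 51.2 CPM in d14. The plates, counted with STARsolo like the 4-week droplets, gave 0 CPM for the last 3 genes. AT1G25175 stood at 2.38, 2.17 and 0 CPM on the plates and 0.880 in the 4-week droplets, against 440 in the wild type and 433 in d14. For the genes higher at 4 weeks the plates differed from the 4-week droplets. AT2G01021 stood at 8812, 7700.1 and 7973 CPM against 672 and MIR396a at 1.19, 3.62 and 1.79 against 131. AT5G22560 stood at 0.594, 7.96 and 5.37 against 114 and AT3G52700 at 35.0, 42.7 and 42.9 against 132. The part of the counting software in these differences was not tested.

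MicroRNA genes had counts only in the 4-week libraries, which were counted with STARsolo. Of 325 microRNA genes that both gene files hold, 134 had a count in some 4-week barcode and 160 on the VASA-seq plates. The wild type and d14, counted with Cell Ranger, had counts in 0 of them. The 10 that reached 50 counts did so on 4-week counts alone, so they could only come out higher. The part of the counting software in this split was not tested. Small nucleolar RNA genes were higher in 11 of 14. In all, 20 of the 1526 higher genes had 0 counts in every 19-day barcode, 10 of them microRNA genes, and 5 of the 802 lower genes had 0 in every 4-week barcode. Genes whose annotated span overlaps another gene, for which the handling of shared reads by the counting software matters, made up 33.4% of tested genes, 27.2% of higher and 31.0% of lower genes. Protein-coding genes alone gave 1420 higher and 780 lower.

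Hormone-induced genes from published experiments gave the counts of larger lists. Of the genes induced by methyl jasmonate, 83 of 411 tested were at least 2-fold lower and 28 higher, with a median log2 ratio of -0.30. Genes induced by abscisic acid held 60 higher and 31 lower of 386, where the shares over all genes were 9.63% and 5.06%, and those induced by brassinosteroid 1 higher and 4 lower of 18. An ethylene precursor list held 1 higher and 6 lower of 21. Among published tissue markers, leaf cambium held 3 higher and 0 lower of 18, root procambium 5 and 0 of 11, root pericycle 4 and 2 of 13, root cortex 3 and 2 of 13, root endodermis 1 and 2 of 11, and root dividing cells 1 and 0 of 7. The leaf xylem parenchyma lists named XP1 and XP2 held 2 and 6 higher members of 17 and 15, with 0 lower. Root trichoblast markers had 1 tested member of 20.

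Within each library, RNA in nuclei was compared with RNA in barcodes with 10 to 100 counts. At 4 weeks 2608 of 14752 genes were at least 2-fold higher in nuclei and 1316 at least 2-fold lower, and at 19 days 1338 and 557 of 8562. The barcodes with 10 to 100 counts held only 159620 counts at 4 weeks and 135126 at 19 days, against 4607519 and 1696318 in nuclei. A gene of few counts in nuclei could thus have almost none in these barcodes. Against barcodes with at least 100 and under 200 counts, 1106 genes were higher and 1278 lower in nuclei of 18380 at 4 weeks, and 793 and 858 of 16275 at 19 days. These barcodes held more counts than the nuclei, 11394222 and 8420608. Because depth differed in this way, higher and lower genes are not read against each other. RR5 stood at 1284 CPM in 4-week nuclei and 507 in the barcodes with at least 100 and under 200 counts, PR2 at 590.4 and 1703, and LHY at 77.4 and 118. At 19 days the same genes stood at 361 and 322, 25.5 and 71.3, and 7.01 and 17.5 CPM. PR2 was thus higher outside nuclei in both libraries and RR5 higher inside at 4 weeks, and the 4-week library was above the 19-day library in both fractions for all 3 genes.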

How the data were processed

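Nuclei of pooled hypocotyls were sequenced on the 10x 3′ platform, and the count matrices were deposited unfiltered. Per the labels and the study's methods, the authors made the 4-week and plate counts with STARsolo in STAR 2.7.8a. The 19-day counts were made with Cell Ranger, version 6.0.1 in the processing notes, although the matrix headers name another release. Both programs were set to count reads in introns as well. The values are whole-number molecule counts per gene and barcode, not normalised. Depth was 21650313 and 18452168 counts. The limits on counts per barcode in the study's methods were applied. The study states fewer 4-week and plate nuclei than these limits leave, and its fluorescence limits on the plates were not applied; a limit of 20% mitochondrial counts removed 0 further 4-week nuclei and could not be applied at 19 days, where the gene file used holds no mitochondrial entries, and doublets were kept in. The gene files hold 38115 and 36957 entries, of which 36449 nuclear gene IDs were shared and scaled to CPM in Python 3.11.15 with numpy 2.4.6, scipy 1.17.1 and pandas 2.3.3. Gene names, spans and promoter sequences came from RefSeq on TAIR10.1, and the files carry no coordinates.

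Ratios have exact conditional binomial (Clopper-Pearson) 95% intervals. No test was made, since each side is 1 library. Genes were named by rule: the 12 highest and 12 lowest ratios with at least 10 counts in each library, the 4 genes each way with most counts among those with under 10 in the other library, and, in each list, up to 4 members past 2-fold with the most counts together with its defining members. Members within 2-fold that are named beside them, and PRR5, VND1 and BTS, were added after their values were seen. The members and lists were chosen with earlier results of these data known. Published lists were taken from the study's supplementary tables, which hold them as markers or hormone-induced genes. The ratio script was tested on simulated counts.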

Additional observations from a re-analysis of the deposited data

Results flagged for a closer look

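Genes that stand in only 1 of the gene files took no part in the comparison and are given as values. AT3G06365, an entry for RNA in the ribosomal unit of chromosome 3 that only the 19-day gene file holds, had 120989 counts in the 19-day nuclei (7.13% of them) and 138266 in the d14 nuclei (6.65%). In the 4-week nuclei, the entries that only its own gene file holds included AT1G54660, a transcribed pseudogene of a terpene synthase, with 9013 counts (0.196%), the mitochondrial gene ATMG00020 with 7378 counts (0.160%) and the transcribed pseudogene AT1G79245 with 3964 counts (0.0860%). These counts are in no CPM value. No group holds the 4 samples that a check for an outlying sample would need.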

How the results depend on the processing

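No paired analysis was possible because each age is 1 library and no result comes from a test. For the same reason no library could be left out, and the ratios have no replicate check. Summing barcodes of at least 500 or of at least 2500 counts, equal limits in both libraries, setting the median gene ratio to 1, protein-coding genes alone, leaving out overlapping genes or the 5% of nuclei with the highest Scrublet scores, adding 5 CPM in place of a minimum, and using d14 in place of the wild type each left the counts of higher and lower genes within 1.5 times. A minimum of 20 counts gave 1225 lower genes. A minimum of 200 gave 897 genes past 2-fold, 569 higher and 328 lower. These were 7.02% and 4.05% of the 8107 genes then tested, against 9.63% and 5.06% in the main comparison. The cause of these differences was not tested. The barcodes with at least 100 and under 200 counts gave 1315 lower genes, and as the low-count set they gave 1106 genes higher in nuclei at 4 weeks and, at 19 days, 793 higher and 858 lower.

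Only lists with a larger main median, and genes at least 2-fold apart in the main comparison, are listed here as turned. Without overlapping genes the root procambium median turned to -0.081. With d14 in place of the wild type, and members chosen anew by the 50-count minimum, medians turned to -0.52 for the vessel list, 0.12 for suberin, -0.065 for auxin response and -0.17 for root xylem. Smaller medians, over the members tested against the wild type, changed sign with d14 as well. Among them were cell division (-0.41 to 0.21), sugar starvation (-0.40 to 0.25), iron deficiency (0.21 to -1.29) and leaf xylem parenchyma XP1 (0.26 to -0.15). The log2 ratios then turned to -0.21 for VND4, -0.086 for IRX3, -0.56 for IRX1, -0.76 for COBL4, -0.82 for CTL2, -0.65 for ESK1, -0.26 for BRX, -0.072 for PEAR2, 0.24 for ASFT, 0.88 for MYB84, 0.35 for GPAT6, 0.56 for MYB36, -0.046 for LNK3, -1.85 for BHLH101, -1.32 for PYE, -0.81 for F3H, -0.065 for IAA19 and -0.35 for LBD16. In barcodes with at least 100 and under 200 counts, medians turned to -0.0080 for cambium, -0.15 for vessels and -0.0075 for phloem, and log2 ratios to -0.094 for ESK1, 0.065 for FAH1, -0.042 for APL, -0.43 for BRX, -0.17 for NAKR1, 0.73 for CUT1 and -0.0012 for GA3OX1. The salicylic acid, jasmonate, epidermis and type-A regulator medians turned under none of these alternatives. The 19-day nuclei hold 1569754 counts against 4547966 at 4 weeks and limit the precision of low genes.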
